A study of Mus musculus with 42 samples.

Results

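Crypts of the distal colon of Mtg16-null mice were compared after injury with dextran sodium sulfate (DSS) and at baseline. This comparison uses 8 of the 42 libraries of the study, namely the 4 Mtg16-null libraries of the DSS table and the 4 Mtg16-null libraries of the baseline table. The study sequenced RNA of mouse colon crypts and tumors from an Mtg16-null colony and a colony with the P209T point mutation of Mtg16, both on a C57/BL6 background and each with wild-type (WT) littermates. Mice were 8 weeks of age or older, and Mtg16-null mice lack Mtg16 from the germline on, in every cell and not only in the epithelium. The baseline mice were untreated, and the DSS mice drank 2% DSS for 5 days and then water for 4 days of recovery. Crypts were isolated with EDTA from the last 5 cm of the colon. The 7 libraries of WT littermates (4 at baseline and 3 after DSS) and 6 WT libraries of the P209T colony (3 and 3) are used only beside the Mtg16-null values. The labels number the libraries of a group without saying what a number marks, so a p-value here measures the spread between these libraries.

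MTG16 (gene symbol Cbfa2t3) is a corepressor. It has no DNA-binding domain of its own and is brought to DNA by transcription factors, among them the E proteins, basic helix-loop-helix factors that bind the E-box. In the crypt, stem cells give rise to absorptive colonocytes and to secretory cells, that is goblet, enteroendocrine and tuft cells, and E proteins act with Atoh1, Neurog3 and Neurod1 on the secretory side. DSS damages the colonic epithelium, and during recovery the crypts regrow while neutrophils and macrophages enter the mucosa.

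The letters CANNTG of the E-box are shown in capitals in 2 promoters from RefSeq (build GRCm38.p6). These genes, Neurod1, a transcription factor of enteroendocrine cells, and Chga, which encodes the granule protein chromogranin A, are shown because both fell after DSS in these libraries and belong to the lineage on which the study turns. The Neurod1 sequence is chr2:79456752-79456886 on the minus strand and ends before the earliest annotated transcript, and the Chga sequence is chr12:102554691-102554940 on the plus strand.
Neurod1: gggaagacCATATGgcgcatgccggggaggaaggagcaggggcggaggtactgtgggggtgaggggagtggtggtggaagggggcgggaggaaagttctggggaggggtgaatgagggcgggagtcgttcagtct
Chga: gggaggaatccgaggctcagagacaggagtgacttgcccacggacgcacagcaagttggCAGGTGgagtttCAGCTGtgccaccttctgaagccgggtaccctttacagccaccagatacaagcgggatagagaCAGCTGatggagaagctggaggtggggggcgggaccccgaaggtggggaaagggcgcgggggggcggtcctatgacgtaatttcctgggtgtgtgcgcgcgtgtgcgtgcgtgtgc
The Neurod1 stretch of 135 bases holds 1 match and the Chga stretch of 250 bases holds 3. The motif reads the same on both strands. In the 250 bases before the start it occurs in 66.2% of 32851 mouse promoters, in 58.7% of the 14392 promoters of tested genes, in 58.2% of those of genes that rose after DSS and in 62.1% of those of genes that fell. Among the 13 promoters of enteroendocrine genes that fell it occurs in 69.2%, a share of few sequences that was not tested. A match describes the sequence and shows no binding.

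The libraries held 39461131 to 61770694 reads assigned to genes. Values below are reads after the 8 libraries were scaled together (scaled reads), always listed for replicates 1 to 4 at baseline and then for replicates 1 to 4 after DSS. Fold changes are differences of log2(scaled reads + 1), DSS minus baseline, with the standard error (SE). The adjusted p is that of limma with Benjamini-Hochberg adjustment over 14437 genes with a mean of at least 10 scaled reads, and a gene is said to have risen or fallen only where it was under 0.05. All DSS libraries were sequenced under 1 request and the baseline libraries under 2 others, so treatment and request cannot be told apart. By Xist and Y-linked genes baseline replicate 2 was male and the other 3 baseline libraries female, while DSS replicates 1 to 3 were male and replicate 4 was called female, with 353 scaled reads of the Y-linked Ddx3y. The first principal component (59.8% of the variance) separated DSS from baseline and the second (22.5%) set baseline replicate 2 apart. That library held 476295 scaled reads of Car1, a carbonic anhydrase of colonocytes, where the other baseline libraries held 8826 to 15361. Longer transcripts gave lower fold changes, from a median of 0.43 for genes whose longest transcript has at most 1000 bases to -0.23 for those of more than 8000 bases.

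Genes of stratified squamous epithelium were high in every library of the Mtg16-null colony after DSS and low at baseline. Of 15 squamous marker genes, 10 were tested and 7 rose. Their summed level was 215 to 277 scaled reads in the Mtg16-null baseline libraries and 15877 to 46861 after DSS, and the WT littermates gave 210 to 303 and 13122 to 22035. In the WT libraries of the P209T colony the sum was 231 to 260 at baseline and 254 to 335 after the same treatment. Krt5, a keratin of basal squamous cells, had 0 reads in all 4 baseline libraries and 18128, 6227, 7732 and 13093 scaled reads after DSS, a rise of at least 13243-fold against a floor of 3 reads over the baseline group. Sox2, a transcription factor of foregut and airway epithelium that colonocytes lack, was listed only in the DSS table. The ratio of Krt5 to Sox2 lay between 6.96 and 8.04 and that of Krt5 to Krt14 between 2.08 and 2.26 in the 7 libraries after DSS, so these genes moved together at fixed proportions in both genotypes. By contrast S100a9, a neutrophil gene, had 0.0208 to 0.674 times the level of Krt5. Genes whose ratio to the squamous sum varied less than 2-fold over these 7 libraries, with a mean there of at least 10 scaled reads, are called fixed-ratio genes below. In bulk samples, more cells of a type and more RNA per cell cannot be told apart, nor can the number of such cells be read from these values. RNA of the crypts' own tissue and RNA from another tissue or sample cannot be told apart by these values either. DSS replicate 4 held 2034 scaled reads of Xist beside 353 of Ddx3y, and the source of these reads was not tested.

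**Figure D1:**
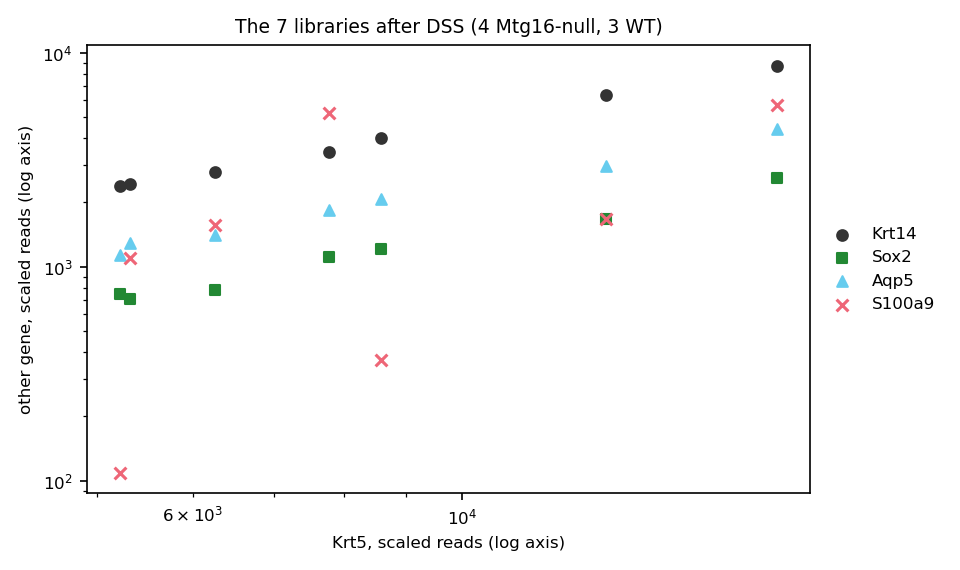
Scaled reads of Krt14, Sox2, Aqp5 and S100a9 (y axis, log scale) against Krt5 (x axis, log scale) in the 4 Mtg16-null and 3 WT libraries after DSS, 1 point per library and gene. Krt14, Sox2 and Aqp5 climb with Krt5 at nearly constant ratios (Krt5 to Sox2 between 6.96 and 8.04), whereas S100a9 does not follow Krt5.

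Of the 14437 genes tested, 1944 (13.5%) were higher and 1532 (10.6%) were lower after DSS in Mtg16-null crypts, and the median fold change of all genes was 0.02. The 4 values after DSS did not overlap the 4 baseline values in 29.2% of the genes tested. Rises were the larger changes, since 718 genes rose and 121 fell at least 4-fold. Fixed-ratio genes made up 31.1% of the genes that rose (605 of 1944) and 297 of the 718 that rose at least 4-fold, but 1 gene of those that fell. They were 1115 of the 14437 genes tested. Without them, 1480 genes were higher and 1327 lower. Of the 10 largest rises among well-expressed genes, 8 were fixed-ratio genes, among them Krt5, Krt6a, Krt17, Krt6b, Ccn2, Aldoart2 and Igfbp2, and the other 2 were S100a9 and Hp. Krt6a and Krt6b are close paralogs whose reads cannot be divided with certainty. The 10 largest falls were Slc30a10, Mptx1, Slc37a2, S100g, Dclk1, Cpm, Olfr78, Gal3st2c, Firre and Tppp, all genes of a ratio that varied.

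The targeted gene was read first as a check of the labels. Cbfa2t3 (chr8:122625141-122699109, minus strand, mm10) had 767, 1204, 473 and 760 scaled reads at baseline and 399, 544, 542 and 456 after DSS in Mtg16-null crypts, while WT littermates had 1150 to 1995 at baseline and 1669 to 2317 after DSS. All 8 Mtg16-null values except baseline replicate 2 lay below every WT value. Reads of the gene remained in every Mtg16-null library. Between baseline and DSS the Mtg16-null values overlapped, with a log2 fold change of -0.66 (SE 0.26, limma adjusted p = 0.0903, two-sided exact permutation p = 0.0857). The other 2 MTG genes did not pass the test either.

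Of 14 enteroendocrine transcription factors 6 fell and 0 rose, with a median log2 fold change of -0.80 (St18, Myt1, Rfx6, Neurod1, Nkx2-2 and Lmx1a fell). Of 19 hormone and granin genes 5 fell (Tph1, Scg5, Chga, Pcsk1n and Chgb) and 2 rose (Cck and Ghrl), with a median of -0.52. Chga had 7467, 11042, 5620 and 7510 scaled reads at baseline and 4245, 3589, 3679 and 4830 after DSS. All values after DSS lay below all baseline values, and the log2 fold change was -0.92 (SE 0.20, limma adjusted p = 0.0122). Tph1, the enzyme that starts serotonin synthesis in enterochromaffin cells, went from 1471, 2439, 1969 and 1286 scaled reads to 264, 530, 592 and 500. The groups were far apart, with a log2 fold change of -1.94 (SE 0.29, limma adjusted p = 0.00223). Neurod1 went from 489, 296, 460 and 477 scaled reads to 154, 274, 255 and 196. Its groups came close at baseline replicate 2 without overlapping, and the log2 fold change was -0.97 (SE 0.24, limma adjusted p = 0.0223). The call was lost without baseline replicate 1, 3 or 4 or DSS replicate 1 or 4, at adjusted p-values from 0.0538 to 0.0684. Neurog3, which starts the lineage, had 657, 194, 351 and 591 scaled reads at baseline and 294, 323, 312 and 283 after DSS. Here baseline replicate 2 lay below every DSS library, the groups overlapped and the gene did not pass the test (log2 fold change -0.41, SE 0.35, limma adjusted p = 0.394).

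The 2 hormone genes that rose were gut peptides of other enteroendocrine cells. Cck, cholecystokinin, had 62.8, 220, 67.6 and 45.1 scaled reads at baseline and 420, 318, 278 and 319 after DSS. Ghrl, ghrelin, had 85.8, 34.5, 84.5 and 100 at baseline and 328, 203, 191 and 272 after DSS. In both genes every DSS library exceeded every baseline library, with log2 fold changes of 2.02 (SE 0.44, limma adjusted p = 0.013) and 1.76 (SE 0.35, limma adjusted p = 0.00967). In the published set of enteroendocrine genes that the study used, 42 of 152 fell and 12 rose, and 17 to 25 fell when baseline replicate 1, 3 or 4 or DSS replicate 1 or 4 was left out. The count of 6 transcription factors depended on the libraries and the fit. It was 0 with the request 5094 baselines alone, 1 without baseline replicate 1, DSS replicate 1 or DSS replicate 4, 2 without baseline replicate 4 or with sex as a covariate, 3 without DSS replicate 3, 10 without baseline replicate 2 and 1 with the replicate block. Without that last library 11 of the hormone and granin genes fell.

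Tuft cells are rare chemosensory cells that use a taste-like signalling cascade. Of 14 tuft cell genes 7 fell and 1 rose, with a median log2 fold change of -0.93. Dclk1, the kinase used to mark these cells, had 220, 575, 252 and 524 scaled reads at baseline and 41.7, 46.4, 37.2 and 45.4 after DSS. The DSS values were alike and 4 or more times below the lowest baseline value, and the log2 fold change was -3.05 (SE 0.34, limma adjusted p = 0.000467). Trpm5, the cation channel of the cascade, went from 151, 382, 97.2 and 281 scaled reads to 22.6, 27.8, 33.9 and 26.6. Its DSS values were again the lower ones throughout, with a log2 fold change of -2.82 (SE 0.42, limma adjusted p = 0.00228). Gnat3, the G protein alpha subunit gustducin, fell by 3.49 on the log2 scale (SE 0.52, limma adjusted p = 0.00236) from 12.7 to 40.3 scaled reads at baseline to 0.826 to 2.96 after DSS, and Rgs13, Sh2d6, Hpgds and Il17rb fell too. The member that rose was Alox5ap, a leukotriene synthesis protein that myeloid cells also express. The published tuft set, which is much wider, gave 61 of 434 lower and 52 higher, shares near those of all genes tested. These counts were 32 to 36 and 25 to 31 without baseline replicate 1 or 4 or DSS replicate 1 or 4, and 32 were higher without DSS replicate 3.

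Of 22 absorptive colonocyte genes 5 fell (Slc37a2, Slc26a3, Slc9a2, Car2 and Slc16a1) and 0 rose, with a median log2 fold change of -0.48. Without baseline replicate 2, 3 of them rose, as did 3 with the request 4149 baselines and 1 without DSS replicate 2. Slc37a2, a sugar phosphate transporter of mature colonocytes, went from 26570, 14878, 10479 and 29249 scaled reads to 1506, 965, 1245 and 3215. The lowest baseline library held more than 3 times the highest DSS library, and the log2 fold change was -3.59 (SE 0.42, limma adjusted p = 0.000625). Slc26a3, the chloride-bicarbonate exchanger of the colonic surface, fell by 1.61 (SE 0.23, limma adjusted p = 0.00208) from 31425 to 59513 scaled reads at baseline to 11964 to 19303 after DSS. S100g, the calcium-binding protein calbindin-D9k, went from 2291, 1201, 1770 and 1917 scaled reads to 131, 129, 109 and 272, a log2 fold change of -3.54 (SE 0.30, limma adjusted p = 0.000124). The groups were separated by a wide gap. Trpm6, a magnesium channel, fell by 2.09 (SE 0.39, limma adjusted p = 0.00711) and Vdr, the vitamin D receptor, by 0.81 (SE 0.15, limma adjusted p = 0.00622). Mptx1, a pentraxin of the intestinal epithelium, went from 39364, 13287, 33664 and 74473 scaled reads to 2332, 1194, 3651 and 2198. Its baseline values varied widely but all lay above the DSS values (log2 fold change -3.96, SE 0.49, limma adjusted p = 0.000933). Slc30a10, a manganese transporter, had a log2 fold change of -5.34 (SE 1.20, limma adjusted p = 0.0151) that ranged from -7.69 to -3.60 over the alternatives, and 3274 of its baseline reads stood in replicate 2, against 24.3 to 154 in the other 3. Of 30 genes of xenobiotic metabolism 9 fell and 1 rose (5 fell without baseline replicate 1 or DSS replicate 1, and 3 rose without baseline replicate 2, 4 with the request 4149 baselines and 0 with those of request 5094). Among those that fell were Cyp3a13, which fell by 1.86 (SE 0.28, limma adjusted p = 0.00267), and Sult1a1, which fell by 1.65 (SE 0.32, limma adjusted p = 0.00784). The 1 that rose, Cyp4b1, was a fixed-ratio gene.

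**Figure D2:**
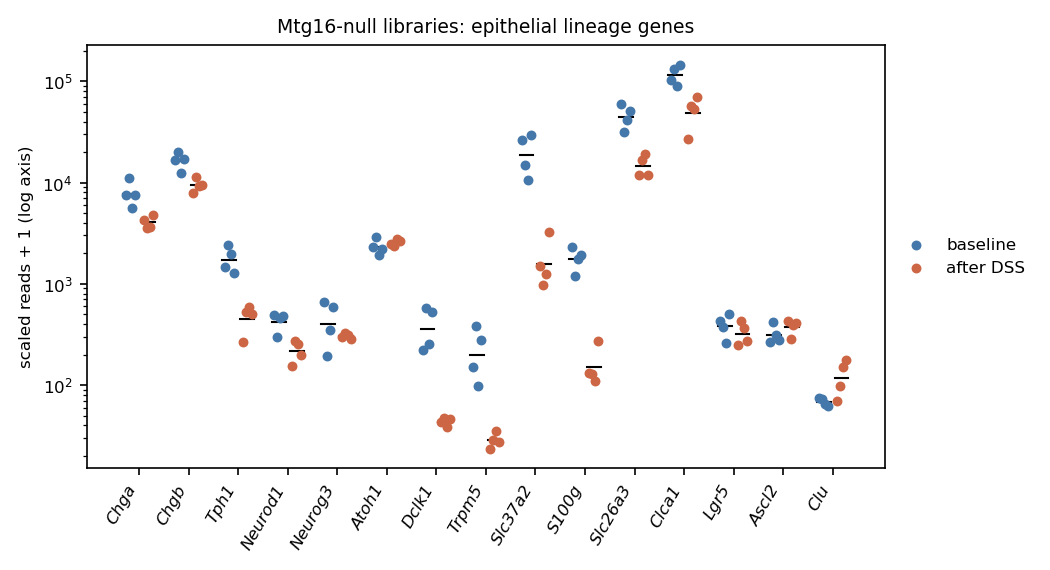
Scaled reads + 1 (y axis, log scale) of 15 genes of the epithelial lineages in the 4 Mtg16-null libraries at baseline and the 4 after DSS, 1 point per library, with a bar at the geometric mean of each group. Dclk1, Trpm5, Slc37a2 and S100g show wide gaps between the groups, whereas Atoh1, Lgr5 and Ascl2 overlap.

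Of 11 general epithelial markers 0 passed the test, and their summed level was 994331 to 1190045 scaled reads at baseline and 983291 to 1378997 after DSS. Of 13 goblet cell products 1 fell and 0 rose, with a median log2 fold change of 0.36 (2 rose without baseline replicate 2 or DSS replicate 2, and 2 fell without baseline replicate 3 or DSS replicate 2). That gene was Clca1, a secreted protease of goblet cell mucus, which went from 102051, 131105, 90351 and 145673 scaled reads to 26807, 57208, 52883 and 69739. Its groups did not overlap (log2 fold change -1.24, SE 0.30, limma adjusted p = 0.0193, and 0.0531 without baseline replicate 4). In the published goblet set 59 of 386 genes rose (15.3%) and 22 fell (5.70%), beside 13.5% and 10.6% of all genes tested. Without DSS replicate 4 these counts were 18 and 8, and without DSS replicate 2 they were 88 and 37. Muc2 was not analysed here. Atoh1, the factor that commits cells to the secretory lineage, had 1929 to 2930 scaled reads at baseline and 2362 to 2788 after DSS, a log2 fold change of 0.15 (SE 0.14, limma adjusted p = 0.425). Of 11 secretory transcription factors Bhlha15 and Xbp1, both of the secretory apparatus, rose and 0 fell, but 1 rose without any 1 of baseline replicates 1, 3 and 4 or DSS replicates 1, 3 and 4.

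The stem cell genes on which the study turns overlapped between the groups. Ascl2, a transcription factor of crypt base stem cells, had 267, 415, 308 and 278 scaled reads at baseline and 431, 285, 390 and 410 after DSS. Lgr5, the R-spondin receptor of the same cells, had 432, 373, 257 and 505 at baseline and 246, 432, 365 and 271 after DSS. Neither passed the test, with log2 fold changes of 0.26 (SE 0.20, limma adjusted p = 0.36) and -0.25 (SE 0.26, limma adjusted p = 0.495). Clu, clusterin, a marker of revival stem cells, had 74.3, 72.5, 64.4 and 60.5 scaled reads at baseline and 68.8, 97, 149 and 178 after DSS. Only DSS replicate 1 lay within the baseline values, but the gene did not pass the test (log2 fold change 0.76, SE 0.32, limma adjusted p = 0.102). Of 18 stem cell genes Olfm4 and Ephb2 rose (11.1%, beside 13.5% of all genes tested) and Znrf3 fell (5.56%, beside 10.6%). Without baseline replicate 2, 5 of them rose, without DSS replicate 4 none did, and 1 rose without baseline replicate 1 or 4 or DSS replicate 3. The fall of Znrf3 was lost without baseline replicate 1, 3 or 4 or DSS replicate 1, 3 or 4. Olfm4 reached no more than 33.7 scaled reads in any library.

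Of 28 replication and S phase genes 13 rose and 0 fell, with a median log2 fold change of 0.64. Mcm3, a subunit of the replicative helicase, had 1907, 1901, 2561 and 1239 scaled reads at baseline and 4307, 3876, 3693 and 3835 after DSS. Every DSS library lay above every baseline library, with a log2 fold change of 1.09 (SE 0.20, limma adjusted p = 0.00576). Mcm2 rose by 0.92 (SE 0.18, limma adjusted p = 0.00807). Mcm5 rose by 1.12 (SE 0.23, limma adjusted p = 0.0106) and was one of 2 fixed-ratio genes among the 13. Of 24 mitosis genes 1 rose and 1 fell, with a median of -0.07 (4 rose without baseline replicate 3, and 4 fell without DSS replicate 2). The proliferation marker Mki67 had 14732 to 21641 scaled reads at baseline and 11288 to 17670 after DSS and did not pass the test (log2 fold change -0.41, SE 0.17, limma adjusted p = 0.0995). Cenpf, a kinetochore protein with a transcript of 11130 bases, was the one that fell (log2 fold change -0.85, SE 0.15, limma adjusted p = 0.0054). The count of 13 replication genes was 6 without baseline replicate 1, baseline replicate 4, DSS replicate 1 or DSS replicate 4, 8 without DSS replicate 2, 7 without DSS replicate 3 and 21 without baseline replicate 3. It was 8 by edgeR, with sex as a covariate and with scaling by the total of reads.

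The largest rises among genes of varying ratio were those of myeloid cells. Of 14 neutrophil markers 10 were tested and 9 rose, with a median log2 fold change of 6.94, and 9 of 14 macrophage and monocyte markers rose with a median of 2.07. S100a9, a subunit of the neutrophil protein calprotectin, had 2.56, 1.15, 19 and 0 scaled reads at baseline and 5668, 1568, 5212 and 1669 after DSS. DSS replicates 1 and 3 were the high ones, every DSS library was far above every baseline library, and the log2 fold change was 9.72 (SE 0.85, limma adjusted p = 0.00014). Il1b, the cytokine interleukin 1 beta, went from 12.8, 3.45, 25.3 and 18.1 scaled reads to 1547, 1143, 3454 and 816. It was highest in DSS replicate 3, and its log2 fold change was 6.82 (SE 0.59, limma adjusted p = 0.000133). Retnlg, a resistin-like protein of neutrophils, had 1 read in the baseline group and 2419 after DSS, a ratio of 2085 (95% counting interval 374 to 82400). Hp, haptoglobin, had 2 reads against 4592, a ratio of 1979 (counting interval 548 to 16349). Fitted fold changes of such genes depend on the pseudocount, and intervals cover counting error only. Csf1r, the receptor of macrophage growth factor, had 62.8, 12.7, 97.2 and 154 scaled reads at baseline and 1471, 486, 1439 and 653 after DSS. Its groups were apart, with a log2 fold change of 3.91 (SE 0.70, limma adjusted p = 0.00582). Lyz2, the lysozyme of macrophages and neutrophils, rose by 4.31 (SE 0.64, limma adjusted p = 0.0024). The exception among neutrophil markers was Ly6g, with 7584, 180, 10026 and 6654 scaled reads at baseline and 6049, 3296, 5873 and 6812 after DSS. It alone filled most of the summed neutrophil level of 200 to 10202 at baseline, against 8954 to 24695 after DSS.

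Markers of other cells gave a mixed picture. Of T cell markers 0 of 10 and of endothelial markers 0 of 3 passed the test. Of 5 markers of glia and neurons 2 rose (Tubb3 and Ret), 1 of them a fixed-ratio gene, and 0 fell, with a median of -1.01. The sum over all markers of that list was 384 to 594 scaled reads at baseline and 2197 to 5295 after DSS. Of 9 fibroblast markers 5 rose, with a summed level of 851 to 1599 scaled reads at baseline and 3370 to 8668 after DSS. Col1a1, the main collagen of fibroblasts, had 26.9, 5.75, 24.3 and 30.7 scaled reads at baseline and 757, 181, 903 and 383 after DSS. Its DSS values were higher throughout (log2 fold change 4.57, SE 0.62, limma adjusted p = 0.00145). Fn1, the matrix protein fibronectin that macrophages and fibroblasts make, went from 16.7, 26.5, 37 and 46.1 scaled reads to 2008, 806, 3058 and 965. No DSS library came near the baseline range, and the log2 fold change was 5.60 (SE 0.46, limma adjusted p = 9.47e-05). All 4 red blood cell markers tested rose, from a sum of 127 to 191 to one of 420 to 5362, and 5 of 7 markers of plasma and B cells rose. Of the red blood cell markers 2 rose without baseline replicate 1 or with sex as a covariate, and 0 with the request 5094 baselines. Of the plasma and B cell markers 2 rose without baseline replicate 1 or DSS replicate 1, 3 without baseline replicate 3 or 4 or DSS replicate 3, and 0 with the request 5094 baselines. Of 4 smooth muscle markers 3 rose (Synpo2, Acta2 and Tagln) and 1 fell (Mylk), with a median of 2.34, whereas the summed level over all 9 markers was lower, 2392 to 4615 scaled reads at baseline and 1517 to 1866 after DSS. The 3 rises, 2 of them of fixed-ratio genes, were lost without DSS replicate 1 or DSS replicate 4. How much these cells contribute to the gene groups below was not tested.

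**Figure D3:**
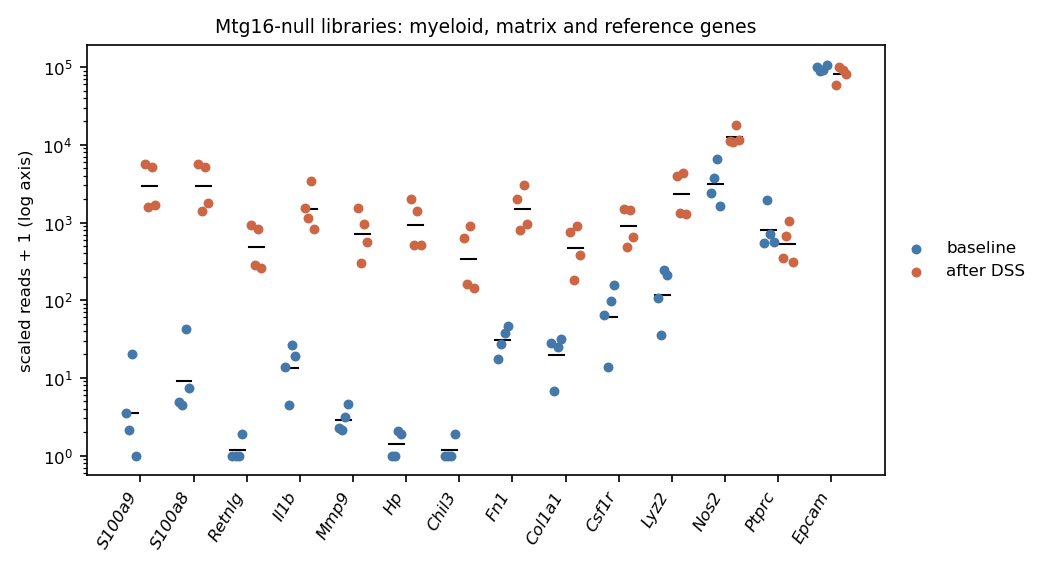
Scaled reads + 1 (y axis, log scale) of 14 genes in the 4 Mtg16-null libraries at baseline and the 4 after DSS, 1 point per library, with a bar at the geometric mean of each group. They are genes of myeloid cells, matrix, leukocytes (Ptprc) and epithelium (Epcam), and Nos2, whose cell source was not tested. S100a9, S100a8 and Retnlg show the widest gaps between the groups, whereas Ptprc and Epcam overlap.

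Of 11 genes of oxidases and nitric oxide 6 rose (Duox1, Cybb, Nos2, Duoxa2, Gpx2 and Cyba) and 0 fell, with a median log2 fold change of 1.08 (3 rose without baseline replicate 1). Nos2, inducible nitric oxide synthase, which crypts already expressed, had 2368, 3756, 6549 and 1652 scaled reads at baseline and 11127, 10870, 18244 and 11590 after DSS. The lowest DSS library exceeded the highest baseline library, a rise of 4.04-fold (log2 fold change 2.01, SE 0.38, limma adjusted p = 0.00737). Duoxa2, the maturation factor of the epithelial oxidase Duox2, went from 3195, 3846, 5043 and 2667 to 7911, 5150, 9368 and 9376. DSS replicate 2 lay just above baseline replicate 3 (log2 fold change 1.11, SE 0.24, limma adjusted p = 0.013). Duox2 itself did not pass the test (log2 fold change 0.25, SE 0.18, limma adjusted p = 0.315). Duox1 and Cyba were fixed-ratio genes, and Cybb encodes the oxidase of phagocytes. Of 16 antimicrobial proteins 5 rose and 0 fell (Lyz2, Saa3, Lcn2, Lyz1 and Pglyrp1), and this count was 2 without baseline replicate 1, DSS replicate 1, DSS replicate 3 or DSS replicate 4, 3 without baseline replicate 4 and 3 after removal of the trend with transcript length. Lcn2, the iron-withholding protein lipocalin 2, had 24.3, 56.4, 272 and 47 scaled reads at baseline and 1445, 268, 836 and 206 after DSS. Baseline replicate 3 overlapped the lower DSS libraries (log2 fold change 2.95, SE 0.80, limma adjusted p = 0.0289). The call was lost without baseline replicate 1 or 4 or DSS replicate 1 or 3, at adjusted p-values from 0.0666 to 0.082. Of 21 chemokines 8 rose (Cxcl2, Cxcl3, Cxcl5, Cxcl14, Cxcl16, Ccl3, Ccl4 and Ccl9) and 2 fell, the epithelial chemokines Ccl25 and Ccl28. Without DSS replicate 1, 5 chemokines rose, and 0 fell without DSS replicate 1 or 4 or baseline replicate 1 or 3. Among 30 interferon-stimulated genes 2 rose and 0 fell, and both that rose were fixed-ratio genes. Without baseline replicate 3, 5 of them rose.

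Of 16 extracellular proteases and inhibitors 11 rose and 0 fell, with a median log2 fold change of 2.43 (7 rose without baseline replicate 1, DSS replicate 1 or DSS replicate 3). Mmp9, a gelatinase of neutrophils, had 1.28, 1.15, 2.11 and 3.61 scaled reads at baseline and 1535, 300, 956 and 566 after DSS, with the groups far apart (log2 fold change 7.93, SE 0.51, limma adjusted p = 3.28e-05). Mmp7, matrilysin, which epithelium makes, had 6.41, 88.6, 9.51 and 13.5 scaled reads at baseline and 347, 316, 346 and 521 after DSS. Its DSS values were all above baseline, with replicate 4 the highest (log2 fold change 4.40, SE 0.68, limma adjusted p = 0.00282). Of 29 fetal-like and revival genes 14 rose and 0 fell, with a median of 0.87. This list includes genes that squamous epithelium also expresses, 5 of the 14 were fixed-ratio genes, among them Ccn2, and 9 rose once fixed-ratio genes were left out. Anxa2, an annexin of regenerating epithelium, went from 42640, 29257, 39410 and 35514 scaled reads to 71316, 48597, 55328 and 65357. The groups did not overlap at a modest log2 fold change of 0.71 (SE 0.18, limma adjusted p = 0.0213). Without baseline replicate 4, DSS replicate 1 or DSS replicate 4 the adjusted p was 0.0544 to 0.0666. Msln, mesothelin, went from 16.7, 6.9, 7.39 and 19 to 78.9, 114, 131 and 242, with a log2 fold change of 3.41 (SE 0.45, limma adjusted p = 0.00136). In the published set of regenerating epithelium after DSS, 75 of 154 genes rose and 1 fell, 21 of the 75 being fixed-ratio genes. In the set of fetal epithelium 75 of 240 rose, 24 of them fixed-ratio genes, and 9 fell (26 fell without baseline replicate 2 and 15 without DSS replicate 2). In that of Clu+ revival cells 69 of 390 (17.7%) rose, 19 of them fixed-ratio genes, and 28 (7.18%) fell. These were 29 to 39 and 10 to 18 without baseline replicate 1 or 4 or DSS replicate 1 or 4, and 66 fell without DSS replicate 2 and 16 without DSS replicate 3. Of the revival cell cluster 7 of 49 (14.3%) rose, 1 of them a fixed-ratio gene, and 4 (8.16%) fell (15 and 11 without baseline replicate 2, and 4 risen without baseline replicate 4 or DSS replicate 1 or 4). The shares of this cluster lay near the 13.5% and 10.6% of all genes tested. In the set of Ascl2+ dedifferentiating cells 31 of 202 rose, 10 of them fixed-ratio genes, and 14 fell, which is 15.3% and 6.93% of the set beside the 13.5% and 10.6% of all genes tested. The counts were 56 and 29 without baseline replicate 2 and 19 risen without DSS replicate 1 or 4. Those that fell were 6 or 7 without baseline replicate 1 or 4 or DSS replicate 1 or 4.

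Of 18 genes of the integrated stress response 7 rose and 0 fell, with a median log2 fold change of 0.67, and this count was 2 with the request 5094 baselines alone and 13 without baseline replicate 2. Of 19 sterol synthesis genes 4 rose (Mvd, Fdps, Fdft1 and Lss) and 0 fell. None rose without baseline replicate 1 or DSS replicate 1 or 4, 2 rose without baseline replicate 4 or DSS replicate 3, 7 rose without DSS replicate 2, and 3 fell without baseline replicate 2. Slc16a3 (chr11:120948480-120960868, plus strand, mm10), the lactate exporter MCT4 of glycolytic cells, had 464, 368, 368 and 324 scaled reads at baseline and 3770, 1926, 2991 and 2939 after DSS. The groups were well apart, a rise of 7.47-fold (log2 fold change 2.90, SE 0.21, limma adjusted p = 4.86e-05). Among the 7 E and Id protein genes, Tcf3, which encodes the E2A proteins, rose by 0.38 (SE 0.10, limma adjusted p = 0.0235) and Id3, an inhibitor of E proteins, fell by 0.65 (SE 0.20, limma adjusted p = 0.0391). Both calls were lost without baseline replicate 1 or DSS replicate 1, and Tcf3 also without baseline replicate 4 or DSS replicate 4 and Id3 also without baseline replicate 3, DSS replicate 2 or DSS replicate 3, with adjusted p-values from 0.0551 to 0.104. Neat1, the scaffold of paraspeckles, had 35380, 20968, 43881 and 23041 scaled reads at baseline and 2239, 10434, 11783 and 2689 after DSS (log2 fold change -2.50, SE 0.55, limma adjusted p = 0.0137). DSS replicates 1 and 4, the lowest for Neat1, were also the lowest for Firre (176 and 190 scaled reads) and held the highest squamous sums.

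**Figure D4:**
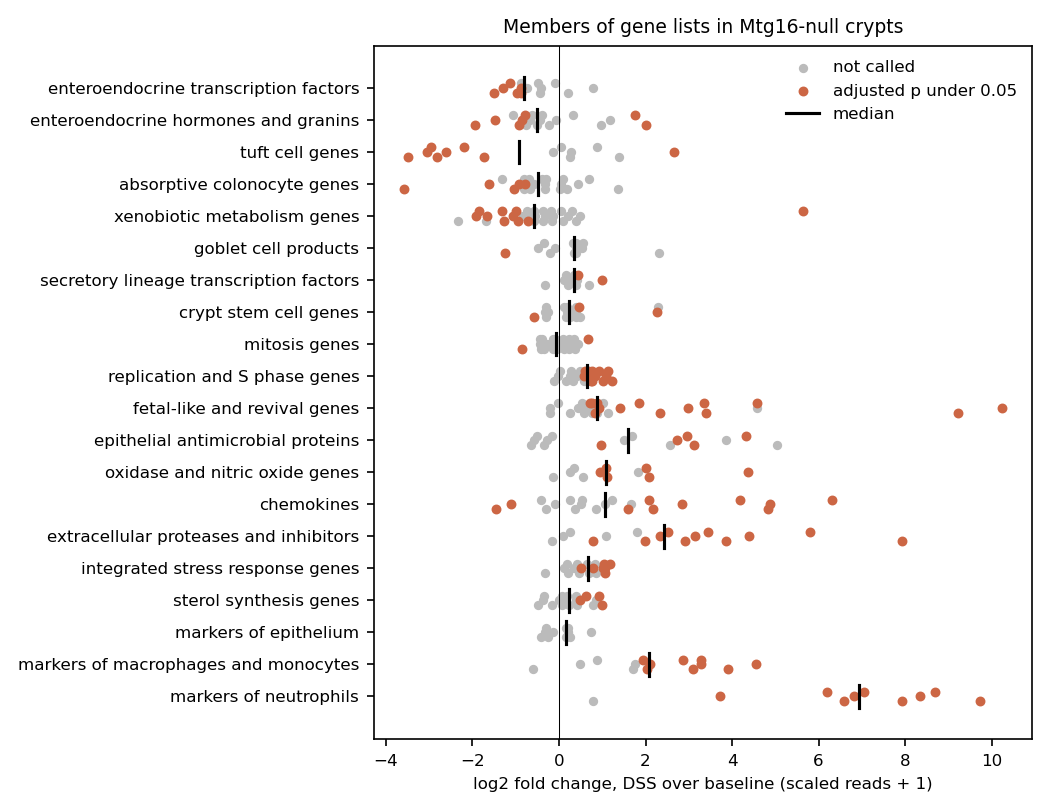
Log2 fold change, DSS over baseline (x axis), of each tested member of 20 gene lists (rows) in Mtg16-null crypts, 1 point per gene, colored where the limma adjusted p was under 0.05, with a bar at the median of each list. Tuft cell, enteroendocrine and absorptive lists lie to the left of 0 (medians -0.93, -0.80 and -0.48) and neutrophil markers far to the right (median 6.94).

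The response of Mtg16-null crypts was then set against that of the WT littermates in a fit of 15 libraries, in which request and treatment are tied in the same way in both genotypes. In that fit 560 genes were higher (3.91%) and 114 lower (0.796%) in WT crypts, with 3 libraries after DSS instead of 4. Of 14328 genes tested for a difference of the response, 0 were called higher and 0 lower in Mtg16-null than in WT crypts by limma (0.0% each), the smallest adjusted p being 0.268. At an unadjusted p under 0.05 there were 518 genes (3.62%), with 1448 without WT DSS replicate 1, 937 without Mtg16-null baseline replicate 2 and 786 without Mtg16-null DSS replicate 2. By edgeR 0 were called, with 558 genes at an unadjusted p under 0.05, and DESeq2 called 8 higher and 19 lower. Without Mtg16-null baseline replicate 2 limma called 3 higher and 12 lower. The values that follow describe these libraries, and no difference given below passed the adjustment by limma with all libraries. Slc16a3 had 390, 463, 391 and 782 scaled reads in WT crypts at baseline and 1008, 640 and 475 after DSS, which overlapped. Its WT log2 fold change was 0.48 (SE 0.29) against 2.90 in Mtg16-null crypts, a difference of 2.43 (SE 0.39, limma adjusted p = 0.268). Nos2 had 3311 to 8455 scaled reads in WT crypts at baseline and 5182 to 7189 after DSS, a WT log2 fold change of 0.26 (SE 0.39) and a difference of 1.75 (SE 0.53, limma adjusted p = 0.74). S100a9 reached 365, 109 and 1098 scaled reads in WT crypts after DSS, below all 4 Mtg16-null values, with a difference of 4.62 (SE 1.20, limma adjusted p = 0.591). Emilin2, an extracellular matrix protein, had 105, 30.9 and 196 scaled reads in WT crypts after DSS, against 588, 265, 888 and 324 in Mtg16-null crypts (difference 4.14, SE 0.78, limma adjusted p = 0.268).

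Among the genes that fell, Dclk1 had 168, 155 and 253 scaled reads in WT crypts after DSS, all above the 37.2 to 46.4 of Mtg16-null crypts, with a difference of the response of -2.22 (SE 0.44, limma adjusted p = 0.302). The tuft cell genes as a list had a median of -0.84 in WT crypts and -0.93 in Mtg16-null crypts. Mptx1 had 36508, 25121 and 25560 scaled reads in WT crypts after DSS, against 1194 to 3651 in Mtg16-null crypts (difference -2.72, SE 0.62, limma adjusted p = 0.398). Cpm, carboxypeptidase M, had 1013, 1560 and 1437 against 202, 324, 367 and 420 (difference -1.70, SE 0.34, limma adjusted p = 0.302). Chga was level in WT crypts, with 2332 to 2931 scaled reads at baseline and 1863 to 3336 after DSS (WT log2 fold change -0.01, SE 0.22). Mtg16-null crypts thus started from 5620 to 11042 scaled reads of Chga and ended at 3589 to 4830, still above every WT library. The difference of the response was -0.91 (SE 0.30, limma adjusted p = 0.899).

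**Figure D5:**
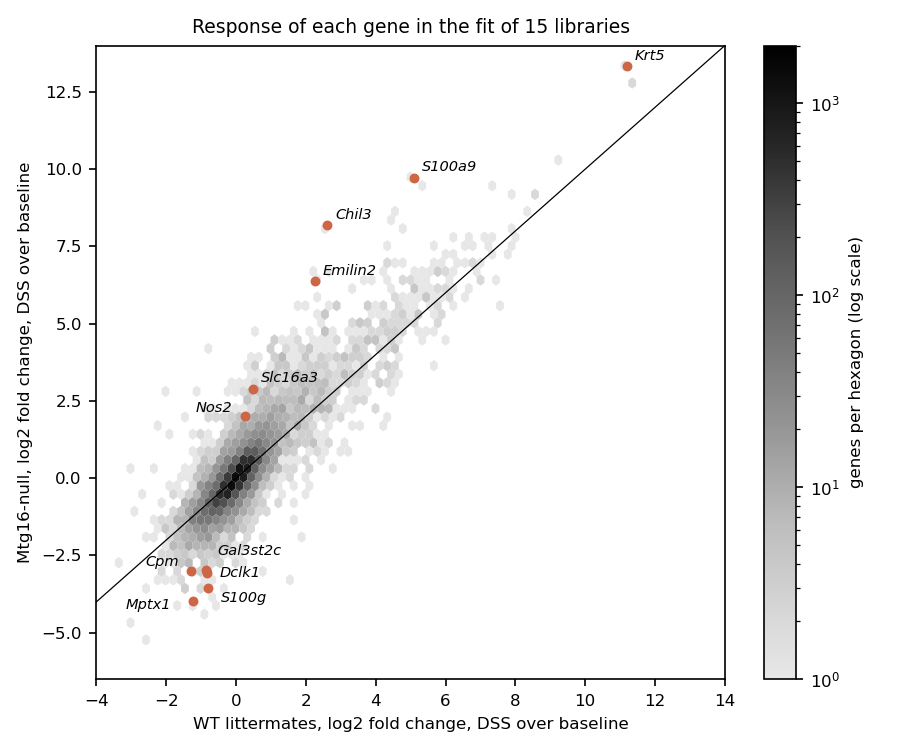
Log2 fold change of each gene within the axis limits, DSS over baseline, in Mtg16-null crypts (y axis) against WT littermates (x axis) in the fit of 15 libraries, shown as counts of genes per hexagon, with the line of equal change and 11 genes named. Slc16a3 (2.90 against 0.48) and S100a9 (9.72 against 5.10) lie above the line and Dclk1 below it, and no single difference passed the adjusted threshold by limma or edgeR with all libraries.

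The WT libraries of the P209T colony received the same DSS course without the squamous signal and were fitted alone, 3 against 3. There 2412 of 13601 genes were higher (17.7%) and 2751 lower (20.2%). Of the fixed-ratio genes that rose in Mtg16-null crypts, 398 were tested there, 96 rose and 17 fell, with a median log2 fold change of 0.42 against 1.91 in Mtg16-null crypts. Of the other genes that rose, 1063 were tested there, 392 rose and 38 fell, with a median of 0.43 against 0.88. Of the genes that fell in Mtg16-null crypts, 1507 were tested there, 755 fell and 51 rose, with a median of -1.07. Of 21 absorptive colonocyte genes 5 rose and 4 fell there, with a median of 0.23, against -0.48 in Mtg16-null crypts. Among those that fell were Slc37a2, which fell by 1.37 (SE 0.36, limma adjusted p = 0.029), and Slc26a3, which fell by 1.68 (SE 0.41, limma adjusted p = 0.024). S100a9 rose there by 2.94 (SE 0.69, limma adjusted p = 0.022) and Cck by 2.38 (SE 0.29, limma adjusted p = 0.0082), whereas Chga rose by 0.62 (SE 0.12, limma adjusted p = 0.014), opposite to its fall in Mtg16-null crypts. Dclk1 (-0.39, SE 0.26, limma adjusted p = 0.25) and Trpm5 (0.48, SE 0.44, limma adjusted p = 0.4) did not pass the test there. Mitosis genes differed in pattern, with 15 of 24 lower there and a median of -1.77. Long transcripts also had lower fold changes there, with a median of -0.77 for genes of more than 8000 bases against 0.31 for those of at most 1000 bases, and the part of length in the mitosis values was not tested. Colony, request and genotype differ together between these fits, and the difference itself was not tested.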

How the data were processed

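RNA-Seq of distal colon crypts from 4 Mtg16-null baseline and 4 Mtg16-null DSS libraries was analysed. The authors trimmed reads with fastp 0.20.0, quantified them with Salmon 1.3.0 (GENCODE vM21, mm10) and scaled them with DESeq2 1.26.0. The signal values that the authors deposited are normalized counts, that is whole reads of a gene over the size factor of its library, computed table by table. The log2 fold changes and p-values of their own tests, also deposited, were not used.

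Whole reads were recovered per column (tolerance 0.01), and the 17511 Ensembl IDs in both tables were scaled over the 8 libraries by TMM (edgeR 4.0.16). Genes with a mean of at least 10 were tested as log2(scaled reads + 1) with limma 3.58.1 (trend) in R 4.3.3, at a Benjamini-Hochberg adjusted p of 0.05. The fit with WT littermates used 15 libraries and values scaled over those. WT values and marker sums are on that scale. edgeR and DESeq2 1.42.0 on recovered reads were alternatives, as were another pseudocount, no filter, other scalings, leaving out libraries, a replicate block, baselines of 1 request and sex. The limma, edgeR and DESeq2 tests at their main settings were checked on simulated counts, and the other alternatives were not. Removal of the length trend, genes listed in either table, omission of fixed-ratio genes and the P209T colony fit were chosen after seeing the data.

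The members and lists were chosen with earlier results of these data known, and the published sets are those of the study. Genes named by rule were those on which the study turns, the 10 largest changes per direction among called, non-overlapping genes with a mean of at least 200 scaled reads and no provisional symbol, and the 2 highest members and largest called changes of each list. Others, such as Slc16a3, Nos2, Il1b, Retnlg, Fn1, Emilin2, Trpm5, Trpm6, Mcm2, Mcm3 and Csf1r, were named after their values were seen. Some genes that the rule names are not reported here. Same-numbered libraries were not pairs, since the correlations of their deviations from the group means were -0.0147, -0.0276, 0.0287 and 0.166. Replicates differed beyond counting noise (chi-square per degree of freedom 43.0 to 351).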

Additional observations from a re-analysis of the deposited data

Results flagged for a closer look

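Within groups of 4 libraries, 22 values stood further from the other 3 than the 95% critical value of Dixon's test allows, where chance flags about 1 in 20 groups, and no explanation was weighed. The number of groups checked is not given here, so the 22 are not read as an excess over chance. Baseline replicate 2 accounted for 12 of the 22. It was highest for Car1 (476295 scaled reads), Slc30a10 (3274), Ptprc (1935), Ddx3y (1895), Saa3 (697), Cyp4b1 (512), Cck (220), Mmp7 (88.6) and the summed T cell markers (6145). It was lowest for Neurod1 (296), Btc (219) and Rfx6 (124). Baseline replicate 3 was highest for Lcn2 (272), Cxcl2 (71.8), S100a8 (41.2), S100a9 (19) and the summed markers of plasma and B cells (978). Among the DSS libraries, replicate 4 was highest for Xist (2034), Mmp7 (521) and S100g (272), replicate 3 for Nos2 (18244) and replicate 1 for the summed red blood cell markers (5362).

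Outside the genes tested, 116 genes were listed in the DSS table alone with a mean of at least 10 reads in the Mtg16-null libraries, against 11 listed in the baseline table alone. They are not among the genes tested. Ngp, a granule protein of maturing neutrophils, was one of them.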

How the results depend on the processing

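Of 139 called genes followed by name, 0 changed direction under the alternatives run. Counts of genes higher and lower after DSS (1944 and 1532) were 986 to 2578 and 588 to 2227 when 1 library was left out. Both were lowest without DSS replicate 4 (986 and 588). They were also low without DSS replicate 1 (1015 and 659), baseline replicate 1 (1100 and 651) or baseline replicate 4 (1210 and 837). Those lower were 977 without baseline replicate 3 and 966 without DSS replicate 3. With the request 5094 baselines alone they were 785 and 324, of which 745 and 294 were among the genes called with all libraries. With 2 baseline libraries, those 2 are assumed to vary like the DSS libraries. DESeq2 gave 2531 and 2145, within 1.5 times. For the difference between genotypes (0 and 0), DESeq2 called 8 higher and 19 lower, leaving out 1 library gave 0 to 3 and 0 to 12 (both highest without Mtg16-null baseline replicate 2), and the request 4149 baselines gave 1 higher. Cbfa2t3 (-0.66, adjusted p = 0.0903) passed the threshold by DESeq2 (-0.73, adjusted p = 0.0317), with sex as a covariate (-0.90, limma adjusted p = 0.0448) and without baseline replicate 3 (limma adjusted p = 0.0269), and ranged from -0.88 to -0.44 over libraries left out. Its value was -0.32 (limma adjusted p = 0.366) with the request 4149 baselines, -0.996 (limma adjusted p = 0.0516) with those of request 5094 and -0.43 (limma adjusted p = 0.225) with the length trend removed. The cause was not tested.

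With the replicate number as a block, 1548 genes were higher and 1136 lower and the difference between genotypes gave 0 and 0. The Cbfa2t3 value stayed at -0.66 (limma adjusted p = 0.0983), and 17 of 139 called named genes lost their call. The numbers share no known pairing.

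Treatment is confounded with request and, in part, with sex. The squamous genes are high in every DSS library of the Mtg16-null colony, so no DSS library of that colony without them remains. With 4 libraries against 4 a two-sided exact permutation p cannot go below 0.0286. Genes at a few reads are limited by counting, and the other values by the spread between libraries.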

Other observations

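Ngp had 1864, 193, 626 and 130 scaled reads in the 4 Mtg16-null libraries after DSS and was not listed in the baseline table, while the 3 WT libraries after DSS had 1.01, 0 and 7.55. Camp, the cathelicidin of neutrophil granules, had 273, 18.6, 73.9 and 8.92 scaled reads in the Mtg16-null libraries after DSS and 0 in the WT libraries after DSS, and it was not listed in the baseline table either. Both genes were highest in DSS replicate 1 and next highest in replicate 3, as S100a9 was. Elane and Mpo, granule enzymes of earlier neutrophil precursors, did not exceed 3.40 scaled reads in any library that lists them. These genes were named after their values were seen and were not tested.

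Nrg1, neuregulin 1, had 5.13, 2.3, 8.45 and 2.71 scaled reads at baseline and 58.6, 38.8, 59.5 and 27.6 after DSS, with no overlap (log2 fold change 3.13, SE 0.47, limma adjusted p = 0.00254). Btc, betacellulin, had 452, 219, 481 and 455 at baseline and 82.3, 268, 174 and 174 after DSS, where DSS replicate 2 overlapped baseline replicate 2 (log2 fold change -1.25, SE 0.38, limma adjusted p = 0.0417). The call of Btc was lost without any 1 of baseline replicates 1, 3 and 4 or DSS replicates 1, 3 and 4 (limma adjusted p = 0.0715 to 0.105). Of 12 genes of the epidermal growth factor family and its receptors these 2 passed the test. That is 8.33% in each direction, beside 13.5% risen and 10.6% fallen of all genes tested. Of 14 Notch pathway genes 6 rose and 2 fell, 5 of the 6 being fixed-ratio genes (3 rose without baseline replicate 4 or DSS replicate 1 or 4). Of 15 Wnt feedback and target genes 5 rose and 1 fell, 2 of the 5 being fixed-ratio genes, and 3 rose without baseline replicate 1 or 4 or DSS replicate 1 or 3. The 1 fall was lost without baseline replicate 1, 3 or 4 or DSS replicate 1, 3 or 4. Of 19 AP-1 and immediate early genes 4 rose, but 2 without any 1 library other than baseline replicate 2 and DSS replicate 2, and 7 without baseline replicate 2. Of 17 circadian clock genes 1 rose and 1 fell, which is 5.88% each, below the shares of all genes tested. The 1 rise was lost without DSS replicate 1 or 4 and with the request 5094 baselines, while 7 fell without baseline replicate 3, 5 with the request 5094 baselines and 0 without baseline replicate 1 or 4 or DSS replicate 1, 3 or 4.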
